A study of Equus caballus with 8 samples.

Results

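Ion channel genes encode proteins that let potassium, calcium, sodium, chloride or mixed cations pass through membranes, together with the subunits that tune them. RNA levels of 83 such genes, of 15266 named genes in the table, were compared between cultured equine mesenchymal stem cells of bone marrow (BM-MSCs) grown with and without transforming growth factor-β2 (TGF-β2). Members were chosen by a rule on the symbol: the families KCN, CACNA, CACNB, CACNG, SCN with a number, CLCN, TRPC, TRPM, TRPV, ANO, PIEZO, P2RX, ITPR and ORAI. The rule itself uses no measured value, but it was set with earlier results of these data known. They comprised 31 potassium channel genes, 17 calcium channel genes, 6 sodium channel genes, 15 chloride channel and anoctamin genes, and 14 genes of transient receptor potential (TRP), mechanosensitive and ATP-gated channels. RefSeq listed 191 protein-coding horse symbols that match the rule, and the other 108 were not analysed here. The rule also took in TRPC4AP, which encodes a protein that associates with TRP channels, and KCNRG, which encodes a regulator of potassium channels, and neither protein forms a pore. Of the 83 genes, 81 reached 10 normalized counts in 4 or more of the 8 libraries and were tested. KCNK9 and SCN11A were not.

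An ion channel gates the flow of ions down their electrochemical gradient. In most cells potassium channels hold the resting membrane potential negative, voltage-gated channels open when that potential changes, and channels of the endoplasmic reticulum and plasma membrane admit calcium as a second messenger. Auxiliary subunits carry no pore but set where a channel is placed and how fast it opens or closes. MSCs are not excitable cells, but cultured MSCs are known to carry potassium currents, store-operated calcium entry and mechanosensitive cation channels.

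The study asked how TGF-β2 changes the transcriptome of equine BM-MSCs. Sternal marrow came from 4 systemically healthy adult Thoroughbred or Thoroughbred-cross horses, labelled D, J, L and W. Marrow from each horse was divided, and 1 portion was grown in standard medium (low-glucose DMEM with fetal bovine serum and, per the study's methods, basic fibroblast growth factor) while the other also received 1 ng/ml human recombinant TGF-β2. The labels give exposure from isolation to passage 3 or 4, whereas the methods give 3 passages, so treated and untreated cultures grew apart over that time. Each horse gave 1 untreated and 1 treated library, 4 and 4 in all, from poly(A)-selected RNA. No library was labelled with its passage.

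Reads counted in named genes numbered 40044240 to 57228675 in untreated and 39184554 to 46634539 in treated libraries, and 3 reads corresponded to 2.02 to 3.60 normalized counts. Such a floor speaks for counting error alone, as PCR copies of 1 molecule are counted separately. The stromal markers ITGB1, CD44, THY1, ENG and NT5E were all present, with summed levels of 138766 to 309522 normalized counts in untreated and 150975 to 250162 in treated libraries. Of 9 blood cell markers, 5 were in the table, and their sum was 52.2 to 348 normalized counts in untreated and 29.8 to 146 in treated libraries, highest in untreated horse J. In bulk RNA, fewer cells of a type and less RNA per cell cannot be told apart.

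Of the 81 tested ion channel genes, 17 were differentially expressed after TGF-β2 treatment, 9 higher and 8 lower. The genes with higher levels included CACNA1H, TRPM8, KCNG1, CACNG4, TRPV6, CACNA2D2, KCNK6 and KCNK1, and those with lower levels were KCNC4, KCNJ2, KCNA3, KCNK5, TRPM2, P2RX7, KCNK2 and SCN4B. A gene was called when its Benjamini-Hochberg adjusted p in limma, a linear model with a shared estimate of variance, was under 0.05 and its absolute log2 fold change was over 1, where fold changes were computed on log2(normalized count + 1) and understate changes of low genes. By this rule 21.0% of the ion channel genes were called, against 11.5% of all 14907 tested genes (5.59% higher and 5.87% lower). CACNA1H, TRPM8, TRPV6 and TRPM2 reached 10 normalized counts only in the group where they were high and so had to differ. Among the other 77 members 13 were called, or 16.9%, against 10.5% of the 14743 genes that reached this level in both groups. The share was not tested.

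Libraries of the same horse deviated together, and with the horse as a replicate block 24 members were called, 12 higher and 12 lower, against 14.1% of all genes (6.83% higher and 7.31% lower). The 7 members added by the block were KCNMB1, TRPV4 and CACNA1C, with higher levels, and KCNF1, KCNIP3, KCNK15 and SCN2A, with lower levels. All 17 called genes moved the same way in every horse. In 29 of the 81 members the values of the groups did not overlap, against 27.8% of all tested genes. At any fold change, 24 members had an adjusted p under 0.05 without the block, against 22.8% of all tested genes. The median absolute log2 fold change was 0.68 over the members and 0.35 over all tested genes, while the median signed change was -0.049 and 0.0055.

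**Figure D1:**
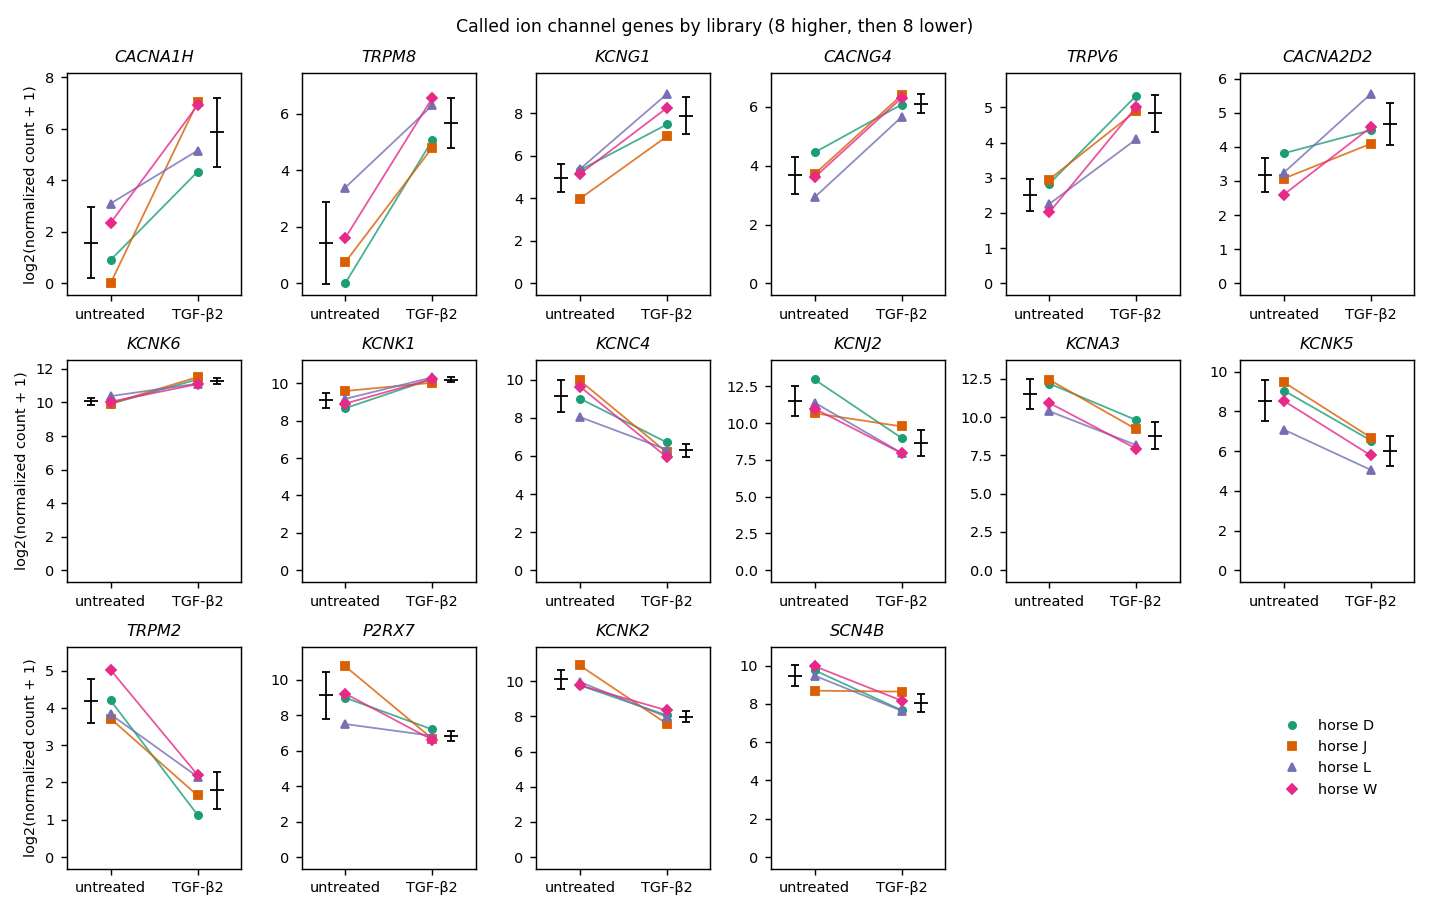
Each panel shows 1 called ion channel gene, with log2(normalized count + 1) on the vertical axis, untreated and TGF-β2-treated libraries on the horizontal axis, a line per horse (n = 4) and the mean ± SD beside each group. The panels of 8 genes called higher come first and those of the 8 called lower follow, and every line runs in the same direction within a panel, nearly flat only for SCN4B in horse J (-0.049 on the log2 scale).

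Potassium channels made up 9 of the 17 calls, 4 higher and 5 lower, of 30 tested. Two-pore-domain potassium channels, which pass the background current that holds the resting potential, split by member. KCNK6 (TWIK-2) and KCNK1 (TWIK-1), the weak inward rectifiers of the family, rose after TGF-β2, whereas KCNK2 (TREK-1), opened by membrane stretch and lipids, and KCNK5 (TASK-2), opened by alkaline pH, fell. KCNK6 measured 966, 979, 1330.5 and 1053 normalized counts in the untreated libraries of horses D, J, L and W, an order kept for all values that follow, and 2663, 2928, 2228 and 2188 in the treated ones. The groups did not overlap, and the lowest treated library (2188) lay well above the highest untreated one (1330.5). The log2 fold change was 1.21 ± 0.14 (SE, n = 4 per group, limma adjusted p = 0.0016). Each ± after a log2 fold change is the SE of the fit without the block. KCNK1 had 404, 766, 571 and 479.9 normalized counts untreated and 1199, 1041, 1270.3 and 1197 treated, again without overlap, with the narrowest gap in horse J (log2 difference 0.44). Its log2 fold change was 1.12 ± 0.19 (limma adjusted p = 0.0062). KCNK1 was not called without horse D, where the change fell below the fold threshold (log2 fold change 0.97), or without horse W (limma adjusted p = 0.059). Scaling by total reads, which moved the median of all genes by -0.31, also took KCNK6 and KCNK1 below the fold threshold, at log2 fold changes of 0.90 and 0.81.

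KCNK2 stood at 875, 1912, 998 and 875 normalized counts in untreated and 266, 191, 251 and 324 in treated libraries. Untreated horse J was far above the other untreated libraries, yet all 4 untreated values exceeded every treated one. It changed by -2.11 ± 0.28 on the log2 scale (limma adjusted p = 0.00224), and it was -1.71 without horse J (adjusted p = 0.00158). KCNK5 fell from 529.9, 709, 135 and 369 to 91.7, 102, 32.2 and 54.1 normalized counts, by a similar proportion in each horse (log2 differences of -2.79 to -2.03), although horse L lay lowest in both groups. KCNK5 changed by -2.52 ± 0.56 on the log2 scale (limma adjusted p = 0.0156). Without horse D or horse W the KCNK5 call was lost (adjusted p = 0.0841 and 0.101), but with the horse as a block it held in every such subset, with an adjusted p of 0.00167 in all 4 horses. KCNK15 (TASK-5), a subunit not known to conduct on its own, had 202, 28.3, 33.9 and 43.6 normalized counts untreated and 73.8, 4.28, 25.3 and 21.6 treated. It was lower in each treated library than in the untreated one of the same horse, but the groups overlapped, and horse D was high in both. The log2 fold change of -1.32 ± 0.88 was called only with the block (adjusted p = 0.317 without and 0.047 with it), and it was lost again without horse D, J or W (0.163, 0.0539 and 0.128). The remaining two-pore gene, KCNK9 (TASK-3), was listed at 8.70, 1.35, 23.6 and 54.8 normalized counts untreated and 4.76, 9.64, 3.45 and 25.2 treated and was not tested.

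Voltage-gated potassium channels repolarize cells after depolarization. Among the 10 tested, KCNA3 (Kv1.3) and KCNC4 (Kv3.4) fell, and KCNG1 (Kv6.1) rose. KCNC4 was measured at 516, 995, 263 and 798 normalized counts untreated and 104, 71.7, 79.3 and 60.1 treated. The groups did not overlap, and the 4 treated values lay close together while the untreated ones spread widely. Its log2 fold change of -2.88 ± 0.40 (limma adjusted p = 0.00269) was the largest fall among the members and was called with any horse left out.

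KCNG1 encodes a silent subunit that forms no channel alone and modifies other voltage-gated potassium channels. It measured 39.2, 14.8, 40.5 and 34.5 normalized counts untreated and 177, 119.9, 481 and 305 treated, with no overlap. With a log2 fold change of 2.93 ± 0.49 (limma adjusted p = 0.00539), KCNG1 was called with any horse left out. KCNF1 (Kv5.1), another silent subunit, had 415, 649, 517 and 214 normalized counts untreated and 416, 230.2, 151 and 51.7 treated. Horse D showed no difference (416 against 415) and the other horses were lower after treatment. The KCNF1 log2 fold change of -1.32 ± 0.62 was called with the block (adjusted p = 0.0399) and not without it (0.16), and with the block it was lost without horse J, L or W (0.0663, 0.122 and 0.152).

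KCNA3, the Kv1.3 channel known from T lymphocytes, was measured at 4672, 5558, 1336 and 1947 normalized counts untreated and 892, 589, 287 and 244 treated. The groups did not overlap, and horses D and J were above horses L and W in both. KCNA3 changed by -2.71 ± 0.56 on the log2 scale (limma adjusted p = 0.0122), with differences of -3.24 to -2.21 among the horses. The call was lost without horse W (adjusted p = 0.0651) but held in every leave-out with the horse as a block (0.00157 in all 4 horses). Of the blood cell markers, CD3E of T lymphocytes was listed at 112 normalized counts in untreated horse J and 16.2 in untreated horse W and at 0 in the other 6 libraries, and the leukocyte marker PTPRC was at 1.74, 110, 41.5 and 26.4 untreated and at 1.19, 3.21, 23.0 and 7.21 treated. Without horse J the KCNA3 log2 fold change was -2.53 (adjusted p = 0.0302). The part of blood cells in the KCNA3 value was not tested.

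KCNJ2 (Kir2.1), the strong inward rectifier that keeps the resting potential near the potassium equilibrium, measured 8038, 1638, 2701 and 2037 normalized counts untreated and 509.8, 877, 251 and 247 treated. Untreated horse D was far above the other untreated libraries, and the groups did not overlap. KCNJ2 changed by -2.83 ± 0.57 on the log2 scale (limma adjusted p = 0.011), smallest in horse J (-0.90) and between -3.98 and -3.04 in the others. Without horse L or W the call was lost (adjusted p = 0.0585 and 0.0655), while without horse D the log2 fold change was -2.45 (0.0479). With the block the KCNJ2 call was lost without horse D or W (limma adjusted p = 0.058 and 0.0716).

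KCNMA1, the pore of the large-conductance calcium-activated (BK) channel, did not pass the test, while its β1 subunit KCNMB1, which raises the calcium sensitivity of the channel and is known from smooth muscle, passed it with the block. KCNMA1 varied little across libraries, at 5924, 4896, 4774 and 6222 normalized counts untreated and 6268, 4882, 6965 and 4940.2 treated, and its log2 fold change was 0.072 ± 0.15 with a 95% confidence interval of -0.27 to 0.42 (-0.24 with scaling by total reads). KCNMB1 was at 381, 219, 367 and 1187 normalized counts untreated and 2408, 496, 3514 and 3050.4 treated. It was higher in the treated library of every horse, but untreated horse W exceeded treated horse J, so the groups overlapped. The KCNMB1 log2 fold change of 2.11 ± 0.71 had a limma adjusted p of 0.0637 without and 0.0133 with the block, and 0.0136 without the block when horse J was left out. With the block it was not called without horse D (0.067).

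Among the other 9 tested potassium channel auxiliary genes, 1 was called with the block and none without it. Over all 10 auxiliary genes 4 had an unadjusted p under 0.05 in limma without the block, DESeq2 called 2 and edgeR 0. KCNIP3, a calcium-binding Kv4 partner that also acts in the nucleus as DREAM, had 38.3, 15.5, 189 and 197 normalized counts untreated and 13.1, 11.8, 26.4 and 30.0 treated. Horses L and W were high only in their untreated libraries. Its log2 fold change was -1.83 ± 0.82 (adjusted p = 0.146 in limma without and 0.0341 with the block), and with the block it was not called without horse D, L or W (0.103, 0.103 and 0.142). KCNE4, an inhibitory subunit of Kv channels that includes Kv1.3 among its partners, kept overlapping levels, 3083, 8378, 4024 and 4304 against 3745, 5238, 3283 and 3696 normalized counts (log2 fold change -0.23 ± 0.29).

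**Figure D2:**
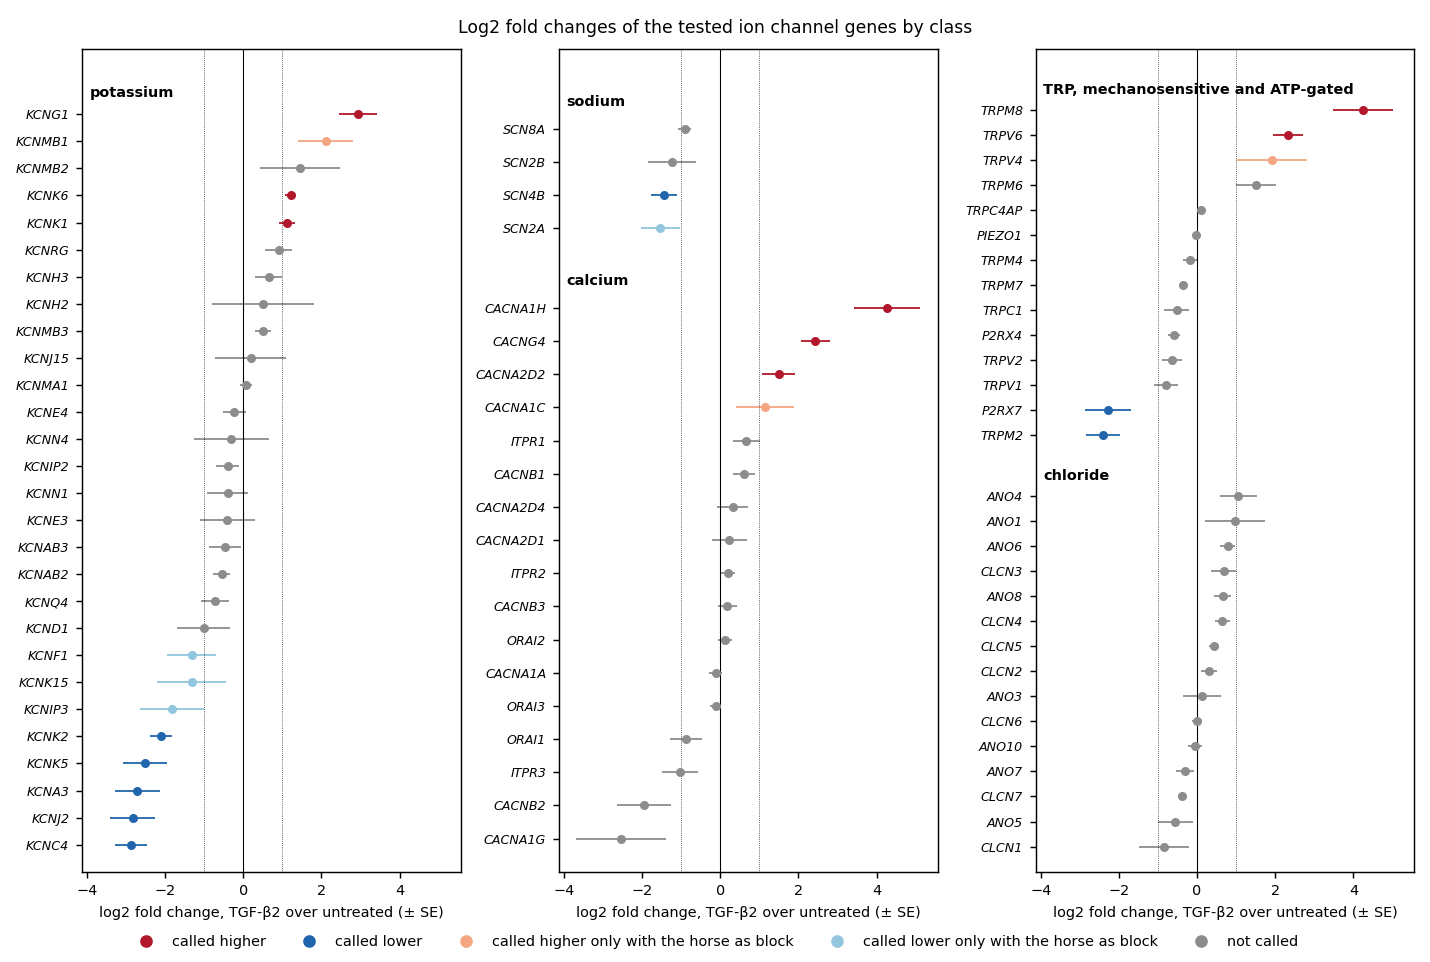
Points are log2 fold changes (TGF-β2-treated over untreated, horizontal axis) of 78 tested ion channel genes with their SE as bars, listed by class on the vertical axis, with dotted lines at the fold threshold of 1 in either direction. Calls lie in 4 of the 5 classes, while the 15 chloride channel genes range from -0.85 to 1.06 and include no call.

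In limma with all 4 horses and without the block, 3 of the 17 calcium channel genes rose and none was called lower. There 4 of the 17 had an unadjusted p under 0.05 in either direction, and edgeR called CACNA1G lower. CACNA1H (Cav3.2), a T-type channel that opens near the resting potential, was nearly undetected without TGF-β2, at 0.870, 0, 7.54 and 4.06 normalized counts, and measured 19.1, 129.5, 34.5 and 119 with it. Untreated horses D and J were below the floor of 3 reads, and the lowest treated library was above the highest untreated one. Its log2 fold change was 4.27 ± 0.85 (limma adjusted p = 0.0104), and the call was lost without horse W (0.0644). CACNA1H reached the level needed for testing only in treated libraries, so its groups had to differ and these p-values are no test of a change. CACNA1G (Cav3.1), another T-type channel, had 626, 25.6, 1877 and 286 normalized counts untreated and 42.9, 74.9, 26.4 and 86.5 treated. Horses D, L and W were lower after treatment and horse J was higher, so that the groups overlapped. The CACNA1G log2 fold change of -2.53 ± 1.16 had a limma adjusted p of 0.152 and 0.0138 without horse J, and DESeq2 gave 0.000484 in all 4 horses. With the horse as a block the adjusted p was 0.159 in limma and 0.0595 in DESeq2, so that the DESeq2 call was lost.

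CACNA1C (Cav1.2), the L-type channel of heart and smooth muscle, was measured at 292, 41.1, 401 and 178 normalized counts untreated and 399, 145, 669 and 551 treated. It was higher in the treated library of each horse by 0.45 to 1.79 on the log2 scale, while horse J was lowest in both groups. The log2 fold change of 1.15 ± 0.75 was called only with the block (adjusted p = 0.0278 with and 0.304 without it). With the block that call was lost when horse D, L or W was left out (adjusted p = 0.0502, 0.0554 and 0.122), and without horse J the change was under the fold threshold (0.94). The neuronal P/Q-type gene CACNA1A lay at 404, 339, 276 and 302 normalized counts untreated and 338, 314, 267 and 292 treated, with a 95% confidence interval of -0.49 to 0.26 for its log2 fold change.

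Auxiliary calcium channel subunits carry the channel to the membrane and set its gating. CACNG4, a γ subunit also known as a partner of AMPA receptors, rose from 20.9, 12.1, 6.60 and 11.2 to 66.7, 83.5, 49.4 and 78.1 normalized counts. The groups did not overlap, and CACNG4 was called with any horse left out (log2 fold change 2.44 ± 0.37, limma adjusted p = 0.00348). CACNA2D2, an α2δ subunit, had 13.1, 7.41, 8.48 and 5.07 normalized counts untreated and 21.4, 16.1, 46.0 and 22.8 treated. The groups were just apart, since untreated horse D (13.1) was near treated horse J (16.1). Its log2 fold change of 1.49 ± 0.41 (limma adjusted p = 0.034) was lost as a call whichever horse was left out (adjusted p of 0.0873, 0.0506, 0.122 and 0.157 without D, J, L and W) and with scaling by total reads (0.051). CACNA2D1, another α2δ subunit and the binding site of gabapentin, varied mostly between horses, at 2307, 1572, 4979.9 and 4330.3 normalized counts untreated and 2499, 2234, 5404 and 5013 treated. CACNB2, a β subunit, was at 80.9, 11.4, 71.6 and 17.2 normalized counts untreated and 15.5, 8.56, 4.60 and 6.01 treated, high only in untreated horses D and L. It had a limma adjusted p of 0.0767 and a DESeq2 adjusted p of 0.00969, for a log2 fold change of -1.94 ± 0.69.

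Calcium release from the endoplasmic reticulum runs through the inositol trisphosphate receptors ITPR1, ITPR2 and ITPR3, and the refilling that follows runs through the store-operated ORAI channels. None of these 6 genes was called by limma with or without the block or by edgeR, while DESeq2 called ORAI1 and DESeq2 with the block called ITPR3. In limma without the block none had an unadjusted p under 0.05. ITPR1 was at 2315, 2818, 5148 and 4519 normalized counts untreated and 3802, 4022, 7928 and 7849 treated. Each treated library was above the untreated one of the same horse, with horses L and W high in both groups. The log2 fold change of 0.66 was under the fold threshold. Its SE was 0.083 with the block (adjusted p = 0.00516) and 0.35 without it. ITPR2 (log2 fold change 0.20 ± 0.17) overlapped between groups, at 2776, 1967, 2225 and 2262 normalized counts untreated and 2167, 2284, 3469.5 and 2754 treated, and its value was -0.12 with scaling by total reads. ITPR3 measured 1402, 3009, 4190.3 and 3314 normalized counts untreated and 1699.7, 1361, 2404 and 618 treated, with horse D higher and the others lower after treatment (log2 fold change -1.02 ± 0.46, limma adjusted p = 0.147).

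ORAI1, the pore of the calcium release-activated current, was at 809, 2331, 563 and 618 normalized counts untreated and 503, 403, 539 and 533 treated. The groups did not overlap, but untreated horse J was far above the other untreated libraries. The log2 fold change of -0.87 ± 0.42 (limma adjusted p = 0.168, DESeq2 0.0454) was -0.32 without horse J (limma adjusted p = 0.191), whose untreated library also had the highest blood cell marker sum. With the horse as a block the DESeq2 adjusted p of ORAI1 was 0.105, and significance was lost. The part of those blood cells in the ORAI1 value was not tested. ORAI2 and ORAI3, the related pores, overlapped between groups, with 95% confidence intervals of -0.27 to 0.52 and -0.44 to 0.21 for the log2 fold change.

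Of 5 tested sodium channel genes, 1 was called, with a lower level after treatment. SCN4B, a β subunit with an adhesion domain, stood at 866, 412, 712 and 1003 normalized counts untreated and 202, 398, 199 and 287 treated. Horse J hardly differed (412 and 398), yet the groups did not overlap. The SCN4B log2 fold change of -1.44 ± 0.33 (limma adjusted p = 0.0167) was lost as a call without horse D, L or W (0.121, 0.085 and 0.0961). SCN2A (Nav1.2), a neuronal pore, had 153, 136, 211 and 381 normalized counts untreated and 38.1, 42.8, 102 and 138 treated, lower in every horse with treated horse W just above untreated horse J. With a log2 fold change of -1.53 ± 0.50 (SE without the block), SCN2A was called with the block (adjusted p = 0.00634) and in each leave-out with the block. It was not called without the block (0.058). SCN8A (Nav1.6) was lower in all 4 horses without overlap, at 614, 464, 681 and 589 normalized counts untreated and 301, 264, 362 and 321 treated, but its log2 fold change of -0.90 ± 0.16 (limma adjusted p = 0.00722) was under the fold threshold. With scaling by total reads it passed, at -1.22. SCN2B was not called, at 8.70, 12.8, 11.3 and 29.4 normalized counts untreated and 2.38, 18.2, 3.45 and 4.81 treated. SCN11A (Nav1.9) was listed at 6.96, 3.37, 6.60 and 7.10 normalized counts untreated and 16.7, 3.21, 41.4 and 13.2 treated and was not tested.

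TRP channels are cation channels gated by temperature, lipids, oxidants and mechanical force. TRPM8, the receptor for cold and menthol, and TRPV6, a calcium-selective channel of epithelia, rose from near the detection limit, and TRPM2, opened by ADP-ribose after oxidative stress, fell to it. TRPM8 was listed at 0, 0.673, 9.42 and 2.03 normalized counts untreated and 32.2, 26.8, 77.0 and 92.5 treated. Its untreated value was 0 in horse D, below the floor of 3 reads in horses J and W and 9.42 in horse L, and the lowest treated library, horse J, had 26.8. TRPM8 rose by 4.24 ± 0.76 on the log2 scale (limma adjusted p = 0.00693, and 0.0599 without horse W). TRPV6 measured 6.09, 6.73, 3.77 and 3.04 normalized counts untreated and 39.3, 28.9, 16.1 and 31.2 treated, with no overlap (log2 fold change 2.32 ± 0.38, adjusted p = 0.00518, and 0.0516 without horse W). TRPM2 was at 17.4, 12.1, 13.2 and 31.5 normalized counts untreated and 1.19, 2.14, 3.45 and 3.60 treated, with every treated library at 3 reads or fewer. Its log2 fold change was -2.41 ± 0.43 (adjusted p = 0.00664, and 0.0581 without horse D). All 3 genes held with the block, at adjusted p of 0.00354, 0.00654 and 0.00865. Each of them reached the level needed for testing only in the group where it was high. Their groups therefore had to differ, so the adjusted p-values, also those of the block and the leave-outs, are no test of a change.

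TRPV4, a channel opened by osmotic swelling and shear and studied in cartilage and stromal cells, had 137, 6.06, 56.5 and 115 normalized counts untreated and 305, 98.5, 185 and 237 treated. Every horse was higher after treatment, and horse J, with 6.06 untreated, was lowest in both groups and gave the largest change (3.82 on the log2 scale). It was called with the block (log2 fold change 1.93, SE 0.50, adjusted p = 0.0365) and not without it (SE 0.90, adjusted p = 0.158). With the block the call was lost without horse D, L or W (adjusted p = 0.0881, 0.0879 and 0.0872). TRPM7, the ubiquitous magnesium-permeable channel with a kinase domain, was at 3593, 2847, 3325 and 3698 normalized counts untreated and 2800.3, 2554, 2636 and 2513 treated, lower in each horse but by less than the fold threshold (log2 fold change -0.35 ± 0.10, adjusted p = 0.0408). TRPV2 lay at 2468, 4958, 2228 and 2224 normalized counts untreated and 1844, 2111, 1814 and 1469 treated and did not overlap, with untreated horse J far above the other untreated libraries. For TRPV2 the limma adjusted p was 0.117, and without horse J the log2 fold change was -0.44 (0.0404).

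PIEZO1, the mechanically gated channel that senses membrane tension, had near-equal levels in both groups. It measured 17709.7, 20116, 18127 and 18562 normalized counts untreated and 16992, 17890.4, 20671 and 17836 treated, and its log2 fold change was -0.024 ± 0.10 with a 95% confidence interval of -0.25 to 0.20 (-0.34 with scaling by total reads, adjusted p = 0.0457). TRPC4AP, with 6535, 6737, 6678 and 6754 normalized counts untreated and 6765, 7057, 7468 and 7225 treated, did not overlap between groups but differed little, with an interval of -0.074 to 0.26, and its log2 fold change of 0.094 became -0.22 with scaling by total reads. P2RX7, the ATP-gated channel known for driving inflammasome activation in macrophages, fell from 509, 1744, 181 and 598 to 147, 102, 114 and 97.3 normalized counts. Untreated horse J was highest and untreated horse L lowest, and the groups did not overlap. The P2RX7 log2 fold change was -2.29 ± 0.59 (limma adjusted p = 0.0265), and the call was lost without horse D or W (0.111 and 0.141). Without horse J, whose untreated library held the most PTPRC and CD3E, it was -1.69 (0.0416). The part of blood cells in the P2RX7 change was not tested. P2RX4, the related channel of lysosomes and plasma membrane, was lower in all 4 horses (1074, 976, 1131 and 1353 against 753, 602, 867 and 817 normalized counts), and its log2 fold change was -0.58 ± 0.15 (adjusted p = 0.0289), under the fold threshold.

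Chloride channels and anoctamins gave no call among 15 tested genes, in limma with or without the block and in edgeR, and 5 of them had an unadjusted p under 0.05 in limma without the block. DESeq2 called 1 with and without the horse, ANO4. ANO6, CLCN4 and CLCN5, with higher levels, and CLCN7, with lower levels, had an adjusted p under 0.05 in limma without the block, with changes below the fold threshold. With scaling by total reads the adjusted p was 0.058 for ANO6, 0.19 for CLCN4 and 0.486 for CLCN5, whose log2 fold change became 0.11, and 0.00533 for CLCN7, at -0.70. Without horse D, L or W none of these 4 genes had an adjusted p under 0.05 (0.0592 to 0.197). With the block further genes were under 0.05, among them ANO1, higher in all 4 horses (log2 fold change 0.97, limma adjusted p = 0.0404). For ANO1 this was lost without horse D, J or W (0.13, 0.0594 and 0.125 with the block). ANO6 (TMEM16F), the calcium-activated scramblase that exposes phosphatidylserine, had 12334, 13857, 14783 and 13076 normalized counts untreated and 21350.3, 15876, 31814 and 26525 treated, without overlap (log2 fold change 0.78 ± 0.20, limma adjusted p = 0.0282). CLCN5, an endosomal chloride-proton exchanger, was at 1449, 1593, 1832 and 1438 normalized counts untreated and 1885, 2017, 2527 and 2057 treated (log2 fold change 0.43 ± 0.13), whereas CLCN7, its lysosomal relative needed for bone resorption by osteoclasts, was at 2605, 2775, 2238 and 2365 untreated and 1903, 1840.3, 1844 and 2017 treated (log2 fold change -0.39 ± 0.095). Both pairs of groups were apart, in opposite directions, and both changes were small. ANO4 lay at 94.8, 106, 122 and 132 normalized counts untreated and 113, 454, 137 and 439.7 treated, high only in treated horses J and W. ANO8 was above its untreated range in all 4 treated libraries (2674, 1326, 2735 and 2180.4 against 3342, 3402, 3338 and 3389 normalized counts, log2 fold change 0.65 ± 0.22, adjusted p = 0.062). ANO10 and CLCN6 overlapped, with 95% confidence intervals of -0.44 to 0.35 and -0.31 to 0.30 for the log2 fold change.

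Ion channel genes varied both between horses and between treatments. Across the 83 members the median share of the variance on the log2 scale was 36.7% between treatments and 34.5% between horses, and it was 32.2% and 39.4% over all tested genes. For 42 members (50.6%) the horse share was the larger one, as for 54.8% of all tested genes. These shares are not corrected for the number of levels, and there were more horses than treatments. Without any effect the horse share would already be the larger, so the size of the shares does not rank horse against treatment. CACNA2D1 and KCNH2 had the largest horse shares of the members, 94.9% and 93.0%. KCNH2 (hERG), the delayed rectifier of the heart, was at 20.0, 4.71, 305 and 122 normalized counts untreated and 32.2, 19.3, 233 and 114 treated. Horses L and W were high and horses D and J low in both groups. CACNA2D1, with only 3.48% of its variance between treatments, had the same order of horses in both groups, L above W above D above J. ANO1, the calcium-activated chloride channel, had 153, 209, 75.4 and 38.6 normalized counts untreated and 529, 395, 95.4 and 70.9 treated, with horses D and J above L and W in both. KCNN4, the intermediate-conductance calcium-activated potassium channel, ranged from 38.6 to 452 normalized counts untreated and from 19.2 to 315 treated, and horse W was lowest in both. KCNK6 had the largest treatment share of the members, at 91.8%, with 1.27% between horses.

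**Figure D3:**
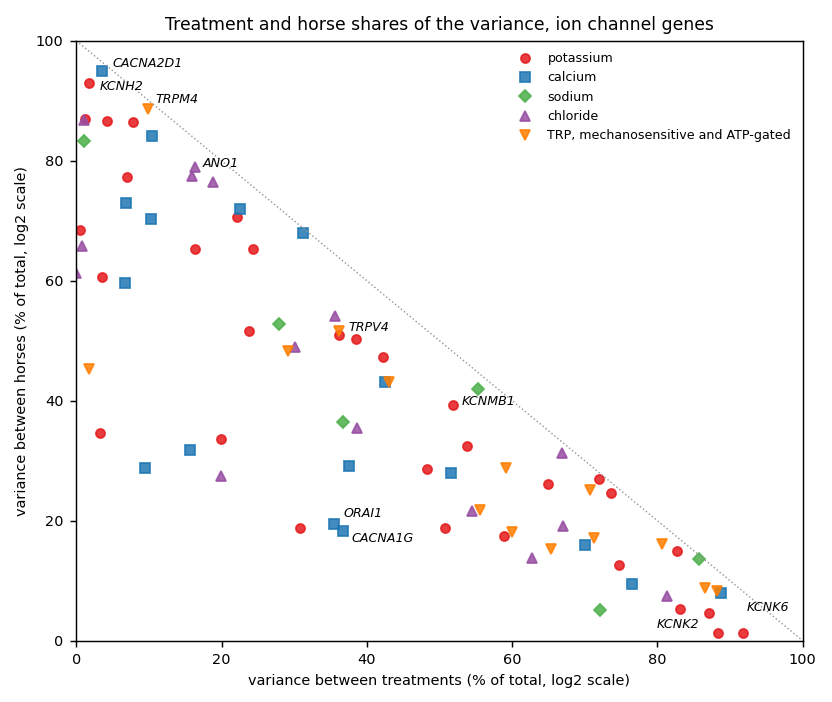
Each point is 1 of the 83 ion channel genes, with the share of its log2-scale variance between treatments on the horizontal axis and between horses on the vertical axis, both in percent, marked by class. Points lie along the whole range, from KCNH2 and CACNA2D1 at over 90% between horses to KCNK6 at 91.8% between treatments.

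Other genes of ion transport were counted in 5 lists, each against the background of 11.5% called over all genes. Of 53 tested genes for other channels, gap junction proteins and aquaporins, 8 were called (15.1%). Of the 53, 3 reached 10 normalized counts only in 1 group, GJA5 and GJA4 among them. Their groups had to differ, also with a horse left out. GJA5, a gap junction connexin, rose from 0.870, 6.73, 5.65 and 7.10 to 554, 245, 701 and 1057 normalized counts, and GJA4, also a connexin of vessels, fell from 59.2, 94.9, 11.3 and 23.3 to 2.38, 6.42, 0 and 2.40. RYR2, the calcium release channel of heart muscle, was at 17.4, 2.02, 12.2 and 41.6 untreated and 216, 103, 802 and 396 treated, and CFTR, the epithelial chloride channel, at 33.1, 12.1, 4.71 and 1.01 untreated and 117, 91.0, 224 and 147 treated. TMEM63C, an osmotically sensitive channel, and LRRC8C, a volume-regulated anion channel subunit, were also called higher, and CLIC5 and MCOLN2 lower (log2 fold changes 3.75, 1.80, -2.92 and -2.49). GJA5 was called with any horse left out, whereas without horse D limma gave adjusted p of 0.0631 for RYR2, 0.0527 for LRRC8C, 0.124 for CLIC5, 0.104 for GJA4 and 0.065 for MCOLN2. Without horse L it gave 0.0522 for RYR2, 0.0633 for CFTR, 0.0549 for CLIC5 and 0.0501 for MCOLN2, without horse W 0.0661 for TMEM63C, 0.0749 for CLIC5, 0.0802 for GJA4 and 0.139 for MCOLN2, and without horse J 0.12 for MCOLN2.

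Of 12 calcium pumps and exchangers 2 were called higher, the plasma membrane pump ATP2B1 (1477, 1910.1, 2029 and 1224 against 5466, 4377, 5611 and 3305 normalized counts) and the exchanger SLC24A2. Of these 12, 1 reached the level needed for testing only in 1 group. Its groups had to differ, also with a horse left out. That gene was not ATP2B1, which was above the level in every library. Of 25 sodium, potassium and chloride pumps and transporters 4 were called. Among these the sodium pump subunit ATP1B1 rose (log2 fold change 2.40), and the endosomal sodium-proton exchanger SLC9A9 and the potassium-chloride cotransporter SLC12A7 fell (-4.29 and -2.52). Of 17 genes of store-operated and mitochondrial calcium entry 1 was called, MCUB, the dominant-negative subunit of the mitochondrial uniporter, which was lower (1471, 2571, 842 and 1192 against 475, 517, 185 and 298 normalized counts). Of 24 calcium and calmodulin effectors 3 were called lower: the kinases CAMK1D and CAMK2A and the transcription factor NFATC4, with log2 fold changes of -1.45, -2.03 and -1.07. ATP2B1, ATP1B1, SLC9A9 and SLC12A7 were called with any horse left out. Without horse W the limma adjusted p was 0.074 for SLC24A2, 0.0757 for MCUB, 0.11 for CAMK1D, 0.069 for CAMK2A and 0.0575 for NFATC4, and without horse D it was 0.064 for MCUB, 0.105 for CAMK1D and 0.0761 for CAMK2A. Without horse L it was 0.0793 for CAMK1D, and NFATC4 fell below the fold threshold (log2 fold change -0.90). These shares of 5.88% to 16.7% were not tested against the background.

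Markers of other cell types were counted beside the channel genes, and some of them changed after treatment while others did not. Of 8 smooth muscle markers, all in the table, ACTA2, TAGLN, CNN1 and DES were called higher and MYH11, SMTN, LMOD1 and MYOCD were not. Of the 8, 1 reached 10 normalized counts only in 1 group, so its groups had to differ, also with a horse left out. The sum of the list was 97112 to 336436 normalized counts in untreated and 360149 to 914286 in treated libraries. KCNMB1 and CACNA1C, both known from smooth muscle, were lowest in horse J in both groups, and the smooth muscle sum was lowest in horse J in both as well. MYH11, a defining marker of mature smooth muscle, was at 231, 368, 680.3 and 5511 normalized counts untreated and 242, 173, 2819.99 and 1909 treated. The part of these markers in the channel values was not tested. Without horse D the limma adjusted p was 0.112 for ACTA2, 0.174 for TAGLN and 0.0925 for CNN1, without horse L 0.0757 for ACTA2 and 0.0987 for TAGLN, and without horse W 0.0961 for TAGLN, 0.0653 for CNN1 and 0.0517 for DES. Of the 5 stromal markers THY1 was called lower (log2 fold change -2.21, adjusted p = 0.0494, and 0.213, 0.148 and 0.0888 without D, L and W). Of 6 endothelial markers 2 were in the table, with KDR called higher and a sum of 7.10 to 26.3 untreated and 30.0 to 55.7 treated, though without horse D, L or W the KDR call was lost (0.137, 0.127 and 0.133). The neuronal marker SYT1 was listed at 0 in every untreated library and at 86.9, 24.6, 131 and 40.8 treated, while SYP and NEFL were too low to test. SYT1 reached 10 normalized counts only in treated libraries and so had to differ. The summed level of the 3 neuron and glia markers in the table was higher after treatment in horses D and L and lower in J and W. It was 10.4, 39.7, 30.2 and 50.7 normalized counts untreated and 97.7, 35.3, 149 and 48.1 treated. ACTA1, the 1 skeletal muscle marker of 6 in the table, and ADIPOQ, the 1 adipocyte marker of 5, were called higher, ACTA1 not without horse D, L or W (0.0931, 0.12 and 0.115). Of 4 osteoblast markers 2 were in the table and neither was called by limma with or without the block, by DESeq2 or by edgeR. In limma without the block 0 of 2 had an unadjusted p under 0.05. Their sum was 1065 to 4972 normalized counts untreated and 261 to 465 in treated horses D, L and W, but 12833 in treated horse J, which stood far above every other library. The part of these cells in the channel values was not tested either. No blood cell marker was called without the block, and 0 of the 3 tested had an unadjusted p under 0.05. ITGB2 was called lower with the block (adjusted p = 0.0347).

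**Figure D4:**
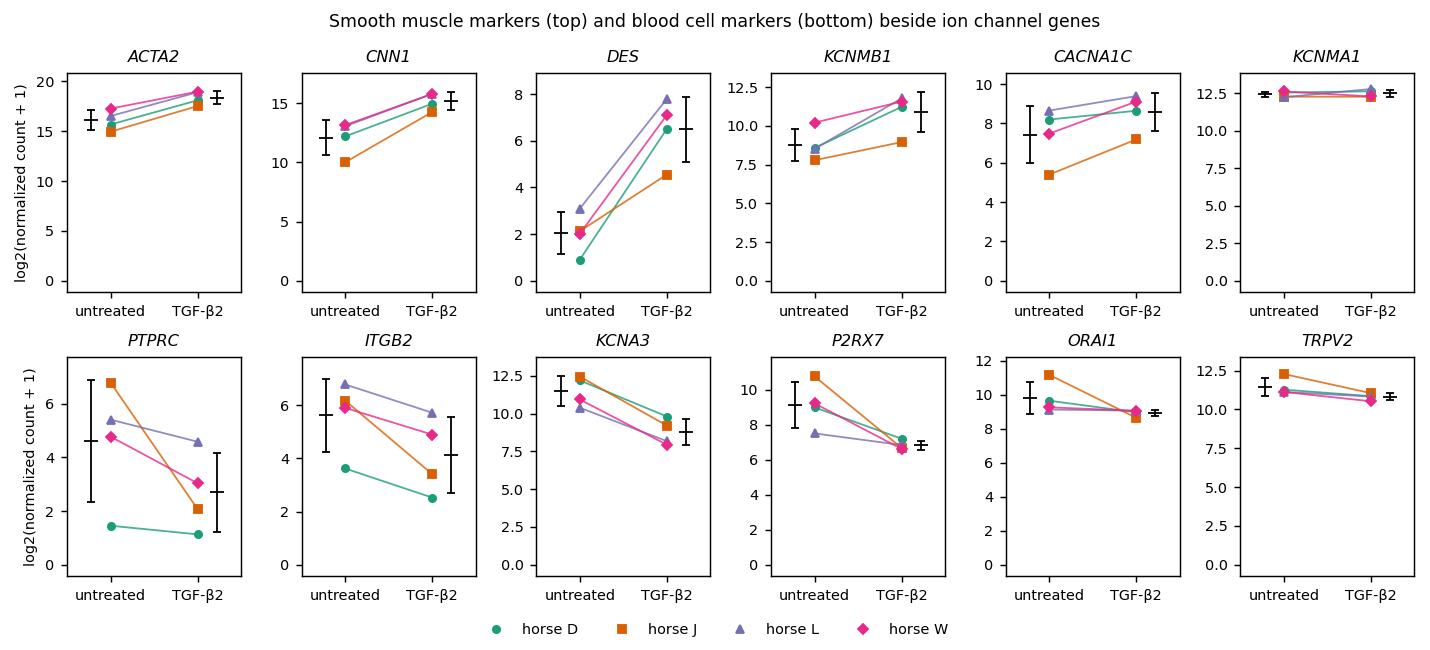
Each panel shows log2(normalized count + 1) of 1 gene on the vertical axis in the untreated and TGF-β2-treated library of each horse (lines, n = 4) with the group mean ± SD, smooth muscle markers and 3 channel genes in the upper row and blood cell markers and 4 channel genes in the lower row. ACTA2, CNN1, DES, KCNMB1 and CACNA1C slope upward in every horse while KCNMA1 does not, and PTPRC is highest in untreated horse J, as are KCNA3, P2RX7, ORAI1 and TRPV2. The other untreated libraries do not keep this order. PTPRC is lowest in horse D, where KCNA3 is above horses L and W. Horse L has more PTPRC than horses D and W but the lowest KCNA3, P2RX7 and ORAI1.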

How the data were processed

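RNA of 8 libraries from 4 horses was analysed. Per the study's methods and the submitters' processing notes, the authors used Trimmomatic 0.36 for trimming and STAR 2.5.2b for alignment to EquCab 3.0, counted unique gene hits with featureCounts of Subread 1.5.2 and compared groups with DESeq2's Wald test. The deposited signal is a normalized count per gene, in which the authors scaled the count of a library by its size factor. Each deposited signal value divided by the value of 1 read came out whole in 100% of cases (tolerance 1e-06), and the recovered reads served for depth and the count tests. Of 15267 rows, 1 has no gene name (0.0281% to 0.0531% of reads) and was left out. Strand use in counting is not given in the sources used here. Symbols are as deposited, and all 83 matched the RefSeq TB-T2T table, which is a different build, so no coordinates or sequences are printed.

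The main test was limma 3.58.1 (lmFit, eBayes with trend, R 4.3.3) on values log2-transformed with a pseudocount of 1, for genes that reached 10 normalized counts in 4 libraries or more, without a horse term, as the methods name none. Samples were grouped by their labels. The labels pair libraries by horse, and libraries of 1 horse deviated together (correlations of 0.525, 0.386, 0.399 and 0.609 for D, J, L and W, mean of different horses -0.159), so the fit with the horse as a replicate block is given where it changes a call. Alternatives were pseudocounts of 0.5 and 5, no filter or one of 50, total, upper-quartile and TMM scaling, no trend, DESeq2 1.42.0, edgeR 4.0.16, an adjusted p under 0.01, no fold threshold and each horse left out. The block with a horse left out, and with total scaling, were added after the data were seen. On simulated data for this comparison (15142 genes) limma recovered 200 of 200 genes changed by a log2 fold of 2, with 1 other call. The simulated counts had 1 dispersion for all genes and no horse effect, and the changed genes were drawn above a minimum mean. The recovery therefore checks the code and does not measure power in these data.

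The members and gene lists were chosen with earlier results of these data known. Named were members called with or without the block, those whose groups do not overlap with an absolute log2 fold change over 1, all ITPR, ORAI and PIEZO genes, the 3 members with the highest mean in each class, and called genes of each list, up to 8. KCNRG, KCNK9, KCNH2, KCNN4, CACNA1A, CACNA1G, CACNB2, SCN2B, SCN11A, TRPV2, P2RX4, ANO1, ANO4, CLCN4, CLCN5, CLCN6 and CLCN7 were added after their values were seen. Some genes that this rule names or the counts include are not reported here. Each group holds 1 culture per horse, so p-values measure the spread between these cultures.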

Additional observations from a re-analysis of the deposited data

Results flagged for a closer look

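In 10 of 160 groups of 4 libraries (80 members, 2 groups each) 1 library stood apart from the other 3 by more than Dixon's 95% critical value, which chance gives in about 1 in 20 groups. Of these, 5 lay in the untreated library of horse J. There TRPV2 had 4958 normalized counts (the others 2224 to 2468), ORAI1 2331 (563 to 809) and KCNK2 1912 (875 to 998), all high, while KCNIP2, a Kv4 partner, had 51.8 (93.3 to 100.1) and SCN11A 3.37 (6.60 to 7.10), both low. The treated library of horse J stood apart for SCN2B, with 18.2 (2.38 to 4.81).

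The untreated library of horse D was high for KCNJ2, with 8038 normalized counts (1638 to 2701), and for KCNK15, with 202 (28.3 to 43.6). The treated library of horse L was high for KCNRG, with 48.3 (22.6 to 26.4). The untreated library of horse W was high for KCNMB1, with 1187 (219 to 381). KCNK2, KCNJ2 and KCNMB1 without the horse concerned had limma adjusted p of 0.00158, 0.0479 and 0.104. With the block these were 0.00204, 0.058 and 0.0483.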

How the results depend on the processing

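Of the ion channel genes, 9 were called higher and 8 lower, and the replicate block gave 12 and 12 (2108 of all genes against 1709). The block changed no other call than the 7 members it added. All 17 remained called with either other pseudocount, without the filter, with upper-quartile or TMM scaling, without the trend, and in DESeq2 and edgeR. The count called higher was 4 with a filter of 50 normalized counts, where 6 of the called genes were lost, and 14 in DESeq2 with the horse. The count called lower was 13 with total scaling, 16 with total scaling and the block, 13 in DESeq2, 14 in DESeq2 with the horse and 3 at an adjusted p under 0.01. Leaving out each horse gave 3 to 13 members higher and 3 to 14 lower over the fits with and without the block. Over all genes, 885 were called at an adjusted p under 0.01, 3403 without the fold threshold, and 718 to 2442 with a horse left out. The cause was not tested where fewer samples or genes do not show it. With total scaling, with or without the block, the sign turned for CACNA2D1 (-0.074), ITPR2 (-0.12), KCNMA1 (-0.24), ORAI2 (-0.19) and TRPC4AP (-0.22), none of them called. With a horse left out it turned for ANO10 (-0.12 to 0.032), KCNMA1 (-0.085 to 0.21) and PIEZO1 (-0.095 to 0.024). Depth limits CACNA1H, TRPM8 and TRPM2, which had 3 or fewer reads in 2 or more libraries.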
